A study of Mus musculus with 1 sample.

Results

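The TRAJ segments are the joining segments of the T cell receptor α-chain (TRA), and their usage was read from the peripheral T cells of 1 vehicle-treated mouse with autochthonous small cell lung cancer (SCLC). A segment was counted when the contig table named it in a TRA chain marked as a cell, productive and of high confidence. This gave 43 of the 60 TRAJ segments of the GENCODE vM39 annotation, in 876 TRA chains of 799 cells. The same filter left 1857 TRA and TRB chains in 975 cells of the library. The mouse had a C57BL/6 background, its tumours came from conditional deletion of Rb1 and Trp53 after intratracheal Adeno-Cre, and it received phosphate-buffered saline (PBS) every 3 days. From 150 µl of its blood, T cells were enriched by negative selection and analysed for T cell receptor (TCR) sequences and gene expression from the same droplet barcodes. The study's methods give a minimum age for such mice but not the age of this one, and the combination-treated mouse and the healthy reference were not analysed here. As 1 mouse gave 1 library, mice were not compared and no spread between replicates is known. Shares are given with exact 95% binomial (Clopper-Pearson) intervals, which cover counting error only.

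In the thymus, the Rag1 and Rag2 recombinase joins 1 TRAV gene to 1 TRAJ segment, and the exon so made is spliced to the constant gene Trac. The recombinase cuts at a signal before each TRAJ segment, made of a heptamer, a spacer and a nonamer. The junction of both segments codes for the third complementarity-determining region (CDR3) of the α-chain, which contacts the peptide presented by MHC. A cell can replace a first joint by joining a TRAV gene further upstream to a TRAJ segment further downstream, so that the array can be used stepwise from its 5′ end, nearest the TRAV genes, towards its 3′ end, nearest Trac.

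The labelled cell type was checked first. Of the 799 cells with a TRAJ chain, 96.7% held Cd3e, 92.0% Cd3g, 90.9% Cd3d and 87.2% Cd247, which encode the CD3 chains of the TCR complex. The constant gene Trac gave 745 UMIs, tags that each mark 1 captured RNA molecule, in 444 of the cells. The recombinase genes Rag1 and Rag2 gave 0 UMIs among 5008314, which allows up to 0.00599 UMIs per 10000. Ptcra, which encodes the surrogate α-chain of immature thymocytes, gave 1 UMI. Dntt, the polymerase that adds bases at the junction, gave 20 UMIs in 17 cells (2.13%) against 0 UMIs in 79 B cell barcodes, defined by B cell genes without a CD3 gene or a productive chain. Of the B cell genes reported here, Cd79a was found in 8 of the cells, Ms4a1 in 3 and Cd79b in 42 (5.26%). Lyz2 was found in 3.25%, Csf1r in 0.375%, Hba-a1 in 2.00%, Hbb-bs in 0.501% and the platelet genes Pf4 and Ppbp in 8.76% and 4.63%. The TRA contigs were shallow, with a median of 3 UMIs and a range of 1 to 32, and 114 of the 876 chains rested on 1 UMI.

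The sequences of the most used segments show what the recombinase and the CDR3 receive from the genome. They were read from chromosome 14 of GRCm39, plus strand, and each includes the 28 signal bases before the segment, except that the best match for TRAJ59 lies 2 bases further upstream. That match covers only 2 of 7 heptamer and 5 of 9 nonamer bases of the motifs given below, so no signal was identified before TRAJ59. Before TRAJ41, 7 of 7 heptamer but only 4 of 9 nonamer bases matched, so no nonamer was identified there. Capitals mark, in order, the place of the nonamer, that of the heptamer and the closing motif. The closing motif runs from the conserved phenylalanine (or tryptophan) codon through a glycine and a variable codon to the next glycine codon. It closes the CDR3 and begins the next framework, and it is marked in the used segments only. The 5 most used segments are followed by TRAJ18 and TRAJ33, which belong to the known invariant receptors, and by TRAJ41 and TRAJ59, 2 annotated genes that were not seen.
TRAJ22: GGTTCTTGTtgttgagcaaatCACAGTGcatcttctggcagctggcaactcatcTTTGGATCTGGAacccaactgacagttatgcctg
TRAJ31: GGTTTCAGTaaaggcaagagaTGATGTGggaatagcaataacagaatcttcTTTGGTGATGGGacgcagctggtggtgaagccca
TRAJ23: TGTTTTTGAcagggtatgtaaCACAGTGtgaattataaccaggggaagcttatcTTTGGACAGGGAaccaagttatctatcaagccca
TRAJ9: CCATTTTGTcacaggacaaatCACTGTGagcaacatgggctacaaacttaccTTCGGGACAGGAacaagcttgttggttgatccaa
TRAJ12: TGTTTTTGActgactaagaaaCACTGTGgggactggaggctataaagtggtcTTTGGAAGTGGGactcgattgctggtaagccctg
TRAJ18: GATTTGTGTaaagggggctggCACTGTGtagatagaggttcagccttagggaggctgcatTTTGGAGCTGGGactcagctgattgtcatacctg
TRAJ33: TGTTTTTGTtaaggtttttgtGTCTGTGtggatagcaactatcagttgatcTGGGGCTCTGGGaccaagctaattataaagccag
TRAJ41: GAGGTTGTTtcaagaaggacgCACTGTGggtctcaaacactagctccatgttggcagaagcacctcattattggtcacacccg
TRAJ59: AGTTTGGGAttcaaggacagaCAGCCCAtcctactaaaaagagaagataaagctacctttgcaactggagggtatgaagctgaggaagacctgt
With its signal, TRAJ22 lies at chr14:54434677-54434764, TRAJ31 at chr14:54425324-54425408, TRAJ23 at chr14:54433510-54433597, TRAJ9 at chr14:54446822-54446907 and TRAJ12 at chr14:54443982-54444067. TRAJ18 lies at chr14:54438206-54438299, TRAJ33 at chr14:54422787-54422871, TRAJ41 at chr14:54413700-54413782 and TRAJ59 at chr14:54393560-54393653. Each is a J segment exon between the TRAV genes and Trac. The array from TRAJ61 to TRAJ1 spans 63.8 kb, and TRAJ1 starts 1.71 kb before Trac. TRAJ33 differs from the other used segments shown in that its closing motif starts with a tryptophan codon.

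TRAJ22 was the most used segment, with 62 of 876 chains (7.08%, 5.47% to 8.98%). It was followed by TRAJ31 with 50 chains (5.71%), TRAJ23 with 46 (5.25%), TRAJ9 with 39 (4.45%) and TRAJ12 with 37 (4.22%). The intervals of these other 4 segments overlapped that of TRAJ22, and those of all remaining segments lay below it. In barcodes of 3000 to 8000 UMIs, a range chosen after the data had been seen, TRAJ31 came first with 30 of 479 chains (6.26%, 4.27% to 8.82%), and TRAJ22 and TRAJ23 had 29 each (6.05%, 4.09% to 8.58%). TRAJ37 and TRAJ34 came next with 33 chains each, TRAJ30 had 31 and TRAJ40 had 30. The 5 most used segments held 26.7% (23.8% to 29.8%) of the chains and the 10 most used 43.9% (40.6% to 47.3%), while an even use of the 43 segments would give 2.33% to each. At the lower end, TRAJ35 and TRAJ5 had 5 chains each (0.571%, 0.186% to 1.33%), TRAJ2 had 6, and TRAJ58, TRAJ38 and TRAJ24 had 8 each. The median segment had 17 chains, and neighbours in the order lay within the counting intervals of each other. When each rearrangement, a TRAV, TRAJ and CDR3 nucleotide sequence, was counted once, 817 were left. TRAJ22, TRAJ31 and TRAJ23 kept the first ranks with 57, 45 and 37 rearrangements. TRAJ12 then had 36 and TRAJ37 had 33, whereas TRAJ9 had 29.

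**Figure D1:**
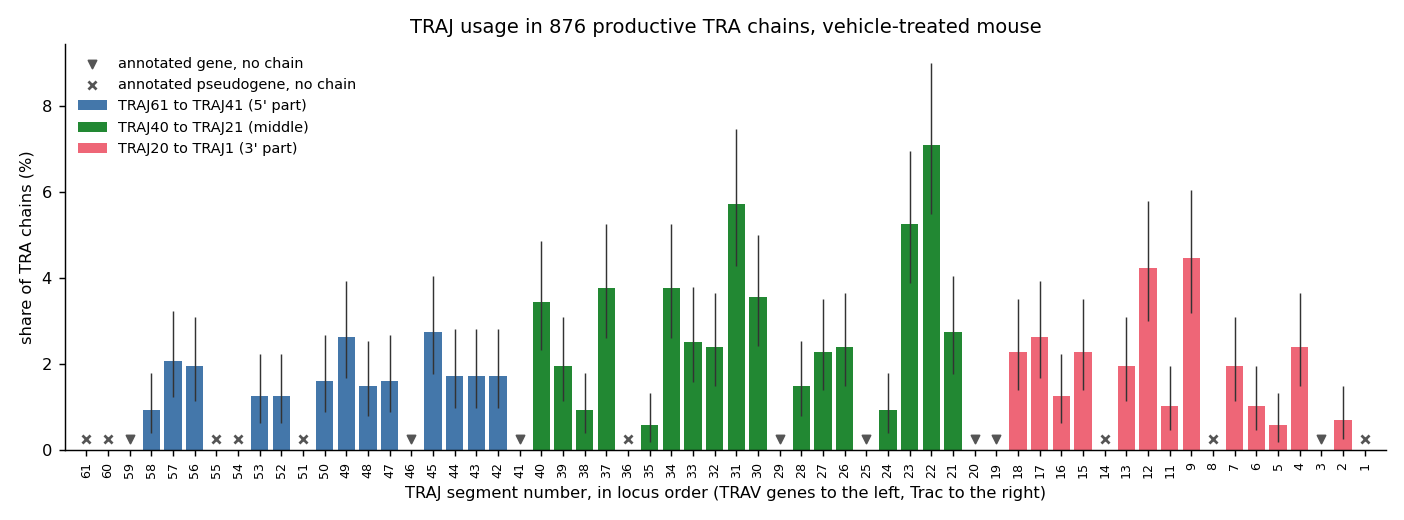
Share of the 876 TRA chains (%, vertical axis) that used each TRAJ segment, in locus order from TRAJ61 to TRAJ1 along the horizontal axis. Bars are coloured by the part of the array, lines are exact 95% binomial intervals, and symbols mark annotated segments without a chain. TRAJ22 has the highest bar at 7.08%, and gaps of unused segments lie in every part.

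By position, 13 segments of the 5′ part (TRAJ61 to TRAJ41) held 198 chains or 22.6% (19.9% to 25.5%), 17 of the middle (TRAJ40 to TRAJ21) held 444 or 50.7% (47.3% to 54.0%) and 13 of the 3′ part (TRAJ20 to TRAJ1) held 234 or 26.7% (23.8% to 29.8%). Of the 5 most used segments, 3 belong to the middle and none to the 5′ part. The cells also held 197 high-confidence contigs with a TRAJ segment that were not marked productive, called non-productive contigs here. Contigs with undetermined productivity were not set apart from joints that cannot code for a receptor. The 197 contigs were divided into 18.8%, 48.2% and 33.0% over the 5′, middle and 3′ parts. The interval of the 3′ part overlapped that of the productive chains. Across the 43 segments, the number of non-productive contigs went with the number of productive chains (Spearman's rho 0.628, Pearson's r 0.591). Both numbers come from the same library and from overlapping cells, and the relation is a description.

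No chain was found for 17 annotated segments, which for each allows a share of up to 0.342% by the limit of 3 counts and 0.420% by the exact interval. None of them was named in a non-productive contig either. Whether the software could have named each of them was not checked, and these limits take it for granted. Of these, 9 are annotated as pseudogenes (TRAJ61, TRAJ60, TRAJ55, TRAJ54, TRAJ51, TRAJ36, TRAJ14, TRAJ8 and TRAJ1). The other 8 are annotated as genes (TRAJ59, TRAJ46, TRAJ41, TRAJ29, TRAJ25, TRAJ20, TRAJ19 and TRAJ3). The glycine codons that close the CDR3 were searched as GGNNNNGG on the coding strand of each segment. The motif was found in 43 of 43 used segments, in 2 of the 8 unused genes (TRAJ46 and TRAJ25) and in 3 of the 9 pseudogenes, or in 80.0% of all segments. Used segments were counted only from productive chains with a called CDR3. The motif in all of them was thus largely fixed by that filter. The 16 bases of the signal were compared with the heptamer CACTGTG and the nonamer GGTTTTTGT, with a spacer of 12 bases and a shift of up to 2 bases allowed. Used segments matched a median of 13 bases (range 11 to 16), unused genes 9.5 (7 to 12) and pseudogenes 9 (7 to 14). The last 3 bases of the heptamer, GTG, stood next to all 43 used segments, 4 of the 8 unused genes and 2 of the 9 pseudogenes. TRAJ34 matched all 16 bases, and TRAJ31, the second most used segment, matched 11. Among the used segments the match went only weakly with the number of chains (rho 0.174, r 0.110, 43 segments), and the order of usage could not be read from it.

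The position of the TRAJ segment followed that of the TRAV gene. Over the 876 chains, the distances of both from Trac were inversely related (rho -0.446, r -0.390), so that TRAV genes near the array were joined to its 5′ segments. The chains were divided into 4 groups of 219 by the distance of their TRAV genes. In the group with the nearest TRAV genes, the 5′ part held 55.3% (48.4% to 62.0%) and the 3′ part 5.94% (3.20% to 9.94%), and the median TRAJ segment lay 46.8 kb before Trac. In the next group the 5′ part held 15.1% and the 3′ part 20.1%, and in the following one 9.13% and 46.1% with a median of 23.3 kb. In the group with the farthest TRAV genes, 24 chains used the 5′ part and 76 the 3′ part (34.7%), so that the shift towards the 3′ end did not go on in that group. Chains are not independent replicates, as some belong to 1 clonotype, but the value was -0.447 over the 817 rearrangements. It was -0.449 in cells with Cd4 alone and -0.434 in cells with Cd8a or Cd8b1 alone.

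Many TRAV genes have near-identical D or N copies along the locus, and the assignment of a chain to 1 copy is uncertain. For the 52 chains of 10 TRAV genes without a copy, the relation was rho -0.812 (r -0.833). This selection was made after the data had been seen. Its value contrasts both ends of the TRAV locus and cannot be set beside that over all chains. The 10 genes lie 345 to 444 kb or 1566 to 1793 kb from Trac, with none between. TRAV21-DV12, the nearest of them at 345 kb from Trac, was joined in 7 chains to segments with a median of 62.0 kb, and TRAV19 in 10 chains to a median of 61.3 kb. TRAV17 in 5 chains had a median of 52.9 kb. At the far end, TRAV5-1 had a median of 24.9 kb and TRAV3-1 one of 23.3 kb, each in 5 chains, and TRAV1 had 28.5 kb in 4 chains. TRAV7-1 and TRAV6-1 had 30.7 and 32.6 kb, each in 5 chains, and TRAV2 had 18.6 kb in 2 chains.

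**Figure D2:**
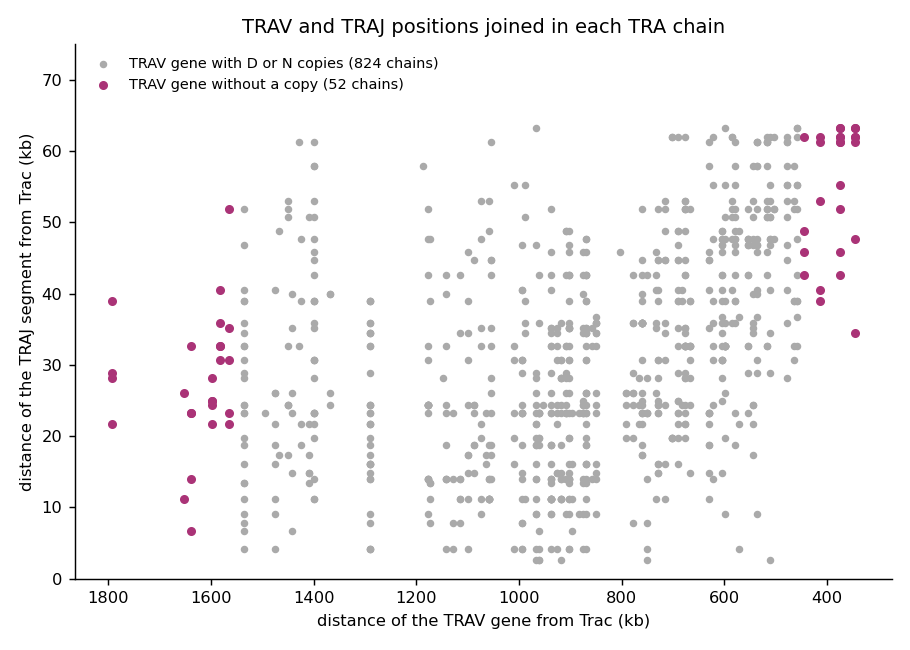
Distance from Trac (kb) of the TRAV gene (horizontal axis, reversed so that Trac lies to the right) and of the TRAJ segment (vertical axis) of each of the 876 TRA chains. Purple points are the 52 chains of TRAV genes without a copy and grey points all others. Chains of the nearest TRAV genes sit high, near the 5′ end of the array, and those of the farthest sit lower.

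Some barcodes held more than 1 TRA rearrangement. Of the 799 cells, 77 had 2 productive TRA chains. Their TRAJ segments lay a median of 7.17 kb apart (quartiles 2.54 and 13.3 kb), in the same part of the array in 44 cells, and were the same segment in 6. The distances from Trac of both segments of a cell went together (rho 0.588, r 0.605, 77 cells). In 146 cells with 1 productive chain and 1 non-productive contig the relation was rho 0.721 (r 0.758). A barcode that holds more than 1 cell would also give 2 chains, and its part in these values was not tested. Cells are not independent here, as each cell of a clonotype with 2 α-chains was counted. The chains of TRAJ23 and TRAJ9 found in 8 and 7 cells may be such a pair. These values were not repeated with each clonotype counted once.

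The CDR3 of the α-chain had a median of 14 amino acids, a mean of 13.6 ± 1.38 (SD over 876 chains) and a range of 8 to 18. Lengths of 13 and 14 amino acids took 25.8% and 30.3% of the chains. The length followed the segment. Among the 35 segments with at least 10 chains, the mean length rose with the number of germline TRAJ bases inside the CDR3 (rho 0.912, r 0.910). The shortest were TRAJ31, TRAJ13 and TRAJ47, each with 26 germline bases, with means of 12.3, 12.4 and 12.5 amino acids. The longest were TRAJ52, TRAJ32 and TRAJ18, each with 35 germline bases, with means of 15.5, 15.3 and 15.1. The extremes were taken by the median and, among equal medians, by the mean. The relation was weaker over single chains (rho 0.494, r 0.493), and the cause was not tested. Germline TRAJ bases that are kept are themselves part of the CDR3 length.

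On average 2.89 TRAJ bases were missing at the joint, and 214 chains (24.4%) kept the whole germline end. A median of 3 bases per chain matched neither the germline TRAV start nor the germline TRAJ end, and 121 chains (13.8%) had none. TRAJ22 kept its whole end in 32 of 62 chains (51.6%) with a median of 0 bases lost, whereas TRAJ31 kept it in 11 of 50 with a median loss of 4 and TRAJ23 in 9 of 46 (19.6%) with a median loss of 3. TRAJ12 kept it in 15 of 37 (40.5%). The most used segment was thus also one of the least trimmed ones, but TRAJ38 with 6 of 8 whole ends was among the least used.

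**Figure D3:**
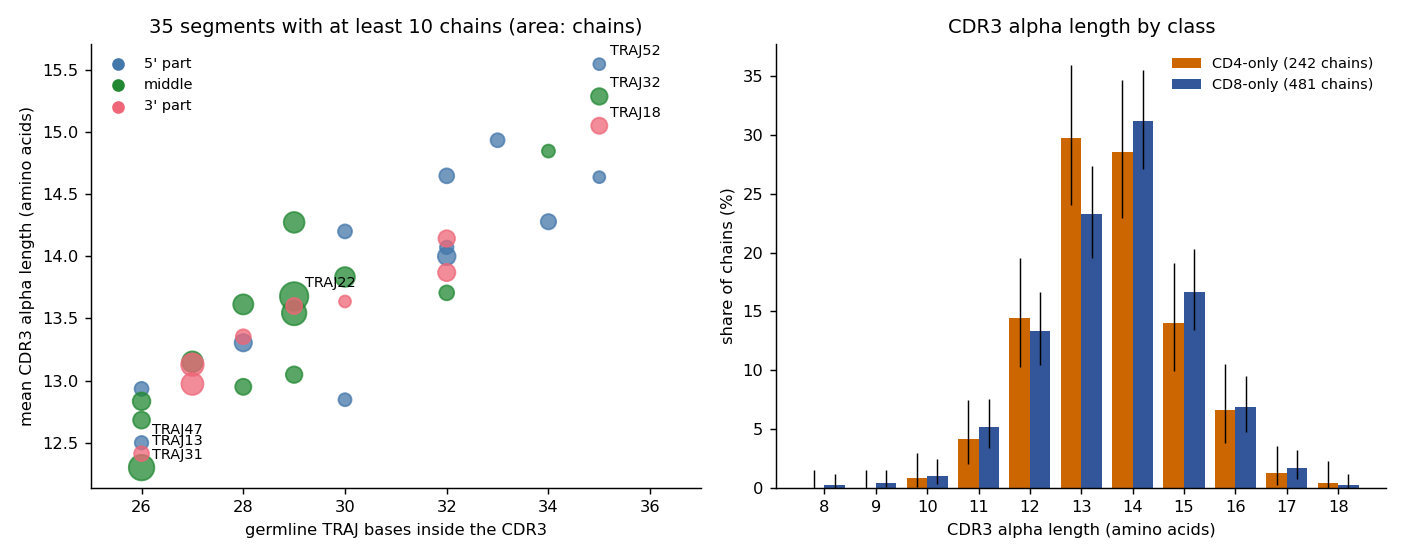
Left, mean CDR3 α-chain length (amino acids) against the germline TRAJ bases inside the CDR3 for 35 segments, with point area by the number of chains and colour by the part of the array; the points rise from TRAJ31 at 12.3 to TRAJ52 at 15.5 amino acids. Right, share of chains (%) by CDR3 length in CD4-only and CD8-only cells, with exact 95% binomial intervals that overlap at every length.

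The cells were then divided by their coreceptor. CD4-only cells held at least 1 UMI of Cd4, the coreceptor for MHC class II, and none of Cd8a or Cd8b1. CD8-only cells, which use the coreceptor for MHC class I, held the reverse. There were 225 CD4-only cells with 242 chains and 433 CD8-only cells with 481 chains, while 33 cells held both and 108 held neither. As a background, Cd4 was found in 1 of the 79 B cell barcodes (1.27%, median depth 3699 UMIs) and Cd8a or Cd8b1 in 2 (2.53%), against 32.3% and 58.3% of the 799 cells (median 5531 UMIs). The classes differed in depth, with a median of 4054 UMIs in CD4-only and 7742 in CD8-only cells, and in the share of cells with under 10% ribosomal protein UMIs, with 15.6% and 9.01%. Cd79b was found in 40 CD8-only cells (9.24%) and in 0 CD4-only cells, whereas Cd79a was found in 7 and 1, and the part of this difference in the TRAJ values was not tested. The median TRA contig had 3 UMIs in both. The part of depth in the values that follow was not tested beyond the settings given beside them.

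CD4-only cells used the 3′ part of the array more and the middle less than CD8-only cells did. The 3′ part held 30.6% (24.8% to 36.8%) of the chains of CD4-only cells and 22.5% (18.8% to 26.4%) of those of CD8-only cells, a difference of 8.13 percentage points. The middle held 45.0% (38.7% to 51.5%) and 55.9% (51.4% to 60.4%), and the 5′ part 24.4% (19.1% to 30.3%) and 21.6% (18.0% to 25.6%). All 3 pairs of intervals overlapped, those of the middle only at their ends. The middle includes TRAJ22, TRAJ23 and TRAJ40, with 7, 5 and 4 of its 109 CD4-only chains and 47, 34 and 20 of its 269 CD8-only chains. As the shares of the parts add up to the whole, the difference by part is not separate from that of these segments. The parts were not compared without them. The difference in the 3′ part was 3.90 points when a class needed at least 2 UMIs of its gene, which left 140 CD4-only chains. In cells with neither gene the 3′ part held 31.9% (23.6% to 41.2%) and in cells with both 40.5% (24.8% to 57.9%). In the non-productive contigs it held 20 of 54 (24.3% to 51.3%) in CD4-only cells and 30.1% (21.8% to 39.4%) of 113 in CD8-only cells.

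Single segments were compared where both classes together had at least 20 chains, which 13 TRAJ segments did. The share differed by more than 2-fold for 3 of them (23.1%), all lower in CD4-only cells. CD8-only cells gave 481 chains and CD4-only cells 242, so segments high in CD8-only cells reached the minimum more easily. The direction of the calls cannot be told apart from this filter. Over all 53 TRAV, TRAJ, TRBV and TRBJ segments tested in this way, 14 or 26.4% differed by more than 2-fold, so that the number of TRAJ segments was near the background of the library. By direction, 10 of the 53 (18.9%) were lower and 4 (7.55%) were higher in CD4-only cells. TRBV segments passed in 8 of 19 cases (42.1%), TRAV in 3 of 9 (33.3%) and TRBJ in 0 of 12.

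TRAJ22 was used by 7 of 242 CD4-only chains (2.89%, 1.17% to 5.87%) and 47 of 481 CD8-only chains (9.77%, 7.27% to 12.8%), a ratio of 0.296. TRAJ23, which lies 1 position upstream, was used by 5 (2.07%, 0.674% to 4.76%) and 34 (7.07%, 4.94% to 9.74%), a ratio of 0.292. Of the 43 used TRAJ segments, these are the 2 whose intervals over chains did not overlap between the classes. Such intervals were not computed for TRAV, TRBV and TRBJ segments, so this count has no background. The intervals of TRAJ22 and TRAJ23 count each cell of a clone, and 8 of the 34 CD8-only chains of TRAJ23 were of 1 rearrangement. With each rearrangement counted once per class, TRAJ23 had 5 of 238 and 25 of 435. No interval was computed for these counts, so a separation of TRAJ23 apart from clone size is not shown. TRAJ40 had 4 (1.65%) and 20 (4.16%) chains, a ratio of 0.398 with overlapping intervals, and the ratio was 0.535 among contigs of at least 2 UMIs and 0.241 with only the chain of most UMIs per cell. The chains of TRAJ22 in CD8-only cells were not 1 clone, as they made up 42 rearrangements with 28 TRAV genes, and those of TRAJ23 made up 25 with 22. These counts take near-identical TRAV copies as different genes. As the assignment to 1 copy is uncertain, they may be too high. In barcodes of 3000 to 8000 UMIs, the ratios were 0.415 for TRAJ22 and 0.190 for TRAJ23. When a class needed at least 2 UMIs of its gene, the ratio of TRAJ23 was 0.499, just past 2-fold, and that of TRAJ22 was 0.295. With each rearrangement counted once per class they were 0.366 and 0.305. Non-productive contigs were too few to compare, with TRAJ22 in 2 of 54 CD4-only and 7 of 113 CD8-only contigs and TRAJ23 in 3 and 5.

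None of the 13 segments was past 2-fold in the other direction. TRAJ17 came nearest with 10 chains in either class (4.13% and 2.08%, ratio 1.99), followed by TRAJ32 with 10 and 11 chains (ratio 1.81). TRAJ31 had 17 CD4-only chains (7.02%) and 23 CD8-only chains (4.78%), and it was the most used segment of CD4-only cells. TRAJ12 had 12 and 15 chains (ratio 1.59). Segments with under 20 chains included large ratios on few counts in both directions. Past 2-fold and higher in CD4-only cells were TRAJ44 with 8 and 3 chains, TRAJ13 with 10 and 5, TRAJ42 with 8 and 5, TRAJ16 with 4 and 3 and TRAJ27 with 10 and 8. Lower in CD4-only cells were TRAJ26 with 1 and 14, TRAJ47 with 1 and 12, TRAJ50 with 1 and 9 and TRAJ48 with 2 and 10. Their intervals overlapped between the classes.

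**Figure D4:**
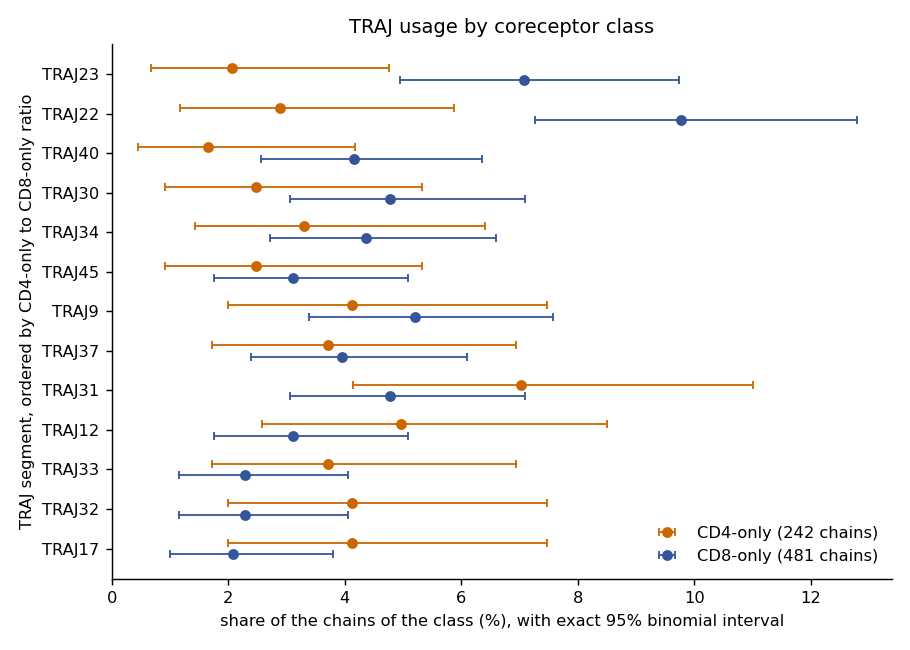
Share of the chains (%, horizontal axis) of CD4-only cells (orange, 242 chains) and CD8-only cells (blue, 481 chains) for the 13 TRAJ segments with at least 20 chains, ordered by the ratio of the shares. Lines are exact 95% binomial intervals that count each cell of a clone, and only those of TRAJ22 and TRAJ23 are apart. Such intervals were not computed for TRAV, TRBV and TRBJ segments, so this count has no background.

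CDR3 length did not separate the classes. The mean was 13.58 ± 1.34 amino acids (SD, 242 chains) in CD4-only and 13.63 ± 1.44 (SD, 481 chains) in CD8-only cells, and the median was 14 in both. The share of chains without added bases was 13.2% and 13.3%, and the share with a whole germline TRAJ end 23.6% and 23.5%.

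Clonotypes of 3 or more cells used 7 TRAJ segments. In the CDR3 sequences that follow, capitals mark the bases that match the germline end of the TRAJ segment. The 4 chains from the clonotypes with most cells are shown, and 1 clonotype can hold 2 α-chains.
TRAV7-4 and TRAJ34: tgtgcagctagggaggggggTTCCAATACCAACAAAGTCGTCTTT
TRAV8D-2 and TRAJ23: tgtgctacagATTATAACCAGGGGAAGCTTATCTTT
TRAV13N-1 and TRAJ9: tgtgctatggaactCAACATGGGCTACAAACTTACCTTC
TRAV9-2 and TRAJ22: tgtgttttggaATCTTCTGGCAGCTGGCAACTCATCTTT
The TRAJ34 chain was read in 8 cells of a clonotype of 9, and with cells of other clonotypes the same rearrangement was found in 10 cells, of which 9 were CD8-only and 1 was CD4-only. The TRAJ23 chain was read in 8 of 8 cells, the TRAJ9 chain in 7 of 8 and the TRAJ22 chain in 4 of 5, and all of these cells were CD8-only. The TRAJ23 and TRAJ9 chains repeatedly followed each other in the order of the contigs, so they may be 2 α-chains of 1 clonotype. The remaining chains came from clonotypes of 4 cells (TRAJ9, TRAJ31 and TRAJ23) and of 3 cells (TRAJ13 and TRAJ30). Of these, the TRAJ31 and TRAJ23 chains may also be 2 α-chains of 1 clonotype. The middle part of the array held 57.9% (46.0% to 69.1%) of the 76 chains in clonotypes of 2 or more cells and 50.0% (46.5% to 53.5%) of the 800 chains in clonotypes of 1 cell. For the 5′ part the shares were 13.2% (6.49% to 22.9%) and 23.5% (20.6% to 26.6%), and for the 3′ part 28.9% and 26.5%. Clone mates are not independent, so the intervals of the 76 chains are too narrow. These shares were not repeated with each rearrangement counted once. Over all chains, 31 of the 817 rearrangements were found in more than 1 cell and 10 in more than 1 clonotype.

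A CDR3 sequence of TRAJ22, named after its values were seen, was shared between clonotypes. In it the whole germline end of the segment followed the TRAV14 start with no added base.
TRAV14 and TRAJ22: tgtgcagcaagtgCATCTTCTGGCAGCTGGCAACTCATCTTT
It was read in 5 cells of 5 clonotypes, under 3 copies of TRAV14 (TRAV14N-2, TRAV14D-3-DV8 and TRAV14N-3). Of these cells, 4 were CD8-only and 1 was CD4-only. At the level of amino acids, 14 CDR3 sequences came from more than 1 nucleotide sequence, and 26 were found in more than 1 clonotype.

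TRAJ18 with TRAV11 makes the α-chain of invariant NKT cells, which recognise lipids on CD1d, and TRAJ33 with TRAV1 that of mucosal-associated invariant T (MAIT) cells, which recognise vitamin B metabolites on MR1. TRAJ18 was used by 20 chains and TRAV11 by 6. They were joined in 4 chains of 3 cells, 0.375% (0.0775% to 1.09%) of the 799 cells.
TRAV11 and TRAJ18, cell 1: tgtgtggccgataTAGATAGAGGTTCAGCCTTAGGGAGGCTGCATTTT
TRAV11 and TRAJ18, cell 1: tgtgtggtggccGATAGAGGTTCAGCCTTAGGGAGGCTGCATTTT
TRAV11 and TRAJ18, cell 2: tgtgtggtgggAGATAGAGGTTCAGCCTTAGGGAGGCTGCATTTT
TRAV11 and TRAJ18, cell 3: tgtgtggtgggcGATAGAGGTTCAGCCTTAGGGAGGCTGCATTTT
The chains of cells 2 and 3 had no added base and different nucleotides that code for the same 15 amino acids. Those of cell 1 had 16 and 15 amino acids with 6 and 2 added bases, so its first chain differed in length from the others. The first chain rested on 2 UMIs and the others on 1 UMI each. The expression matrix gave a readout that the chains were not chosen by. Zbtb16, the transcription factor of innate-like T cells, had 6 UMIs in 4 of the 799 cells, and 5 of these UMIs were in the 3 cells with this chain, with 3, 1 and 1. It was also found in 1 of the 79 B cell barcodes, and its share of 0.501% of the cells was below that level. The same cells held 2, 2 and 4 UMIs of Klrb1c, which encodes NK1.1 and was found in 18 of the 799 cells and in 1 B cell barcode, and 6, 4 and 4 UMIs of Il2rb, a gene found in 362 cells. Tbx21 had 1, 2 and 0 UMIs and Xcl1 had 0, 0 and 1. No CD8 UMI and 1 Cd4 UMI were found in them. The TRAV1 and TRAJ33 joint was found in 0 of 799 cells, so that its share may be as high as 0.375% by the limit of 3 counts or 0.461% by the exact interval, although TRAJ33 was used by 22 chains and TRAV1 by 4.

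The expression matrix also lists the TRAJ segments as genes of their own. They held 319 UMIs over all barcodes, of which 115 were in the 799 cells. For used segments, 93 UMIs lay in these cells, and 14 of them (15.1%, 8.48% to 24.0%) were of the segment of the cell's own productive chain. TRAJ usage was taken from the contigs and not from the matrix, and this choice did not rest on that share.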

How the data were processed

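Gene expression and TCR libraries of 1 vehicle-treated SCLC mouse (10x Genomics) were used. The authors processed the reads with Cell Ranger (version 4 in the matrix header, build GRCm38 in the submitters' processing notes) and deposited an unfiltered matrix of UMI counts, and a contig table with read and UMI counts, V and J genes, CDR3 and clonotype. The matrix held 12855001 UMIs of 32285 genes, and there were 6687 contigs. All 60 annotated TRAJ genes were matched by Ensembl identifier to GENCODE vM39 on GRCm39, from which positions and sequences were taken.

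Chains marked as cell, productive and high confidence were counted with Python 3.11.15, pandas 2.3.3 and scipy 1.17.1. Of the 876 chains, 4 had no constant gene. Bases kept from a TRAJ segment are the longest end of the CDR3 that equals the germline, so a chance match counts as kept, and added bases are those matched by neither side. The TRAJ segments, parts of the array and gene lists were chosen with earlier results of these data known. Named were the 5 most and 5 least used segments with ties, those past 2-fold between classes, those of clonotypes of 3 or more cells, TRAJ18 and TRAJ33, those with the 3 longest and 3 shortest CDR3, and annotated segments not seen, with genes of the TCR complex and of recombination. Segments named beside them were chosen after their values were seen. The counting functions were tested on simulated data. Correlations and ratios of shares carry no test. Alternatives were other units counted, contig UMI minimums, cell limits, class rules and segment minimums.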

Additional observations from a re-analysis of the deposited data

Results flagged for a closer look

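The expression matrix held UMIs of annotated TRAJ genes that no productive TRA chain used, which is signal outside the contig table. Over all barcodes these were 16 UMIs of TRAJ25, 14 of TRAJ19, 10 of TRAJ3, 5 of TRAJ29 and 4 of TRAJ20. In the 799 cells with a TRA chain they were 5, 7, 1, 3 and 2. UMIs of the matrix and productive chains are unlike units, so the limit for 0 chains does not apply to these counts. Over all 17 unused segments there were 56 UMIs, of which 22 were in the 799 cells with a TRA chain. There is no control library for these values, and their source was not tested.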

How the results depend on the processing

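No paired analysis was possible because the series as analysed here has 1 library. Of 84 results recomputed under another setting, 79 stayed within the counting interval, the 2-fold limit or 1.5 times of the value, and none changed direction. These limits are wide. With a class minimum of 2 UMIs, the 3′ difference fell from 8.13 to 3.90 points, and the TRAJ23 ratio went from 0.292 to 0.499. Both were counted among the 79. Some settings also kept nearly all chains, such as 869 of 876 over the cell limit, and could move little. The difference in median CDR3 length between CD4-only and CD8-only cells, 0 amino acids, was -1 with only the chain of most UMIs per cell and -1 with the class set by the gene with more UMIs. The number of TRAJ segments past 2-fold, 3 of 13 tested, was 11 of 34 with a minimum of 10 chains, where more segments on fewer counts are compared. Of these, TRAJ13, TRAJ27, TRAJ42 and TRAJ44 were higher and the others lower in CD4-only cells. The share over all TRAV, TRAJ, TRBV and TRBJ segments is not given for this minimum, so this count has no background. The ratio of TRAJ40 was 0.535 among contigs of at least 2 UMIs, where it no longer passed 2-fold, and the cause was not tested. The correlation of TRAV and TRAJ position, rho -0.446, was -0.812 for TRAV genes without a copy. That alternative was added after the data had been seen, and its genes lie only at both ends of the TRAV locus. The cause of the change was not tested. TRAJ30 was also past 2-fold when the class needed 2 UMIs or was set by the gene with more UMIs. In barcodes of 3000 to 8000 UMIs, 4 segments could be tested, TRAJ22, TRAJ23 and TRAJ9 passed, and TRAJ31 in place of TRAJ22 was the most used. The share over all segments is not given for this range, so this count has no background. Over all barcodes the ratio of TRAJ9 was 0.795, and 7 of its 25 CD8-only chains were of 1 rearrangement. The 876 chains give an interval of 3.51 percentage points for the most used segment, and shares of single segments within a class are less precise.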
